A study of Homo sapiens with 6 samples.

Results

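The nuclear genes of respiratory complexes II, III, IV and V and of cytochrome c were examined in T47D cells that overexpress prolactin. They were taken as every row of the deposited gene table whose symbol names succinate dehydrogenase (SDHA to SDHD), ubiquinol-cytochrome c reductase (UQCR genes and CYC1), cytochrome c (CYCS), cytochrome c oxidase (COX4 to COX8 genes) or ATP synthase (ATP5 genes). This gave 51 of 17891 genes: 4 of complex II, 10 of complex III, CYCS, 16 of complex IV and 20 of complex V. The matching went by symbol alone, with no measured value. After the filter on low counts 46 of them were tested, and UQCRHL, COX4I2, COX6A2, COX8C and ATP5MGL were not.

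T47D cells are an established human cell line from a luminal breast cancer that carries hormone receptors. In the PRL group (3 libraries) the cells carried a lentivirus of the PLVX-puro system with PRL, which encodes prolactin. Control cells (3 libraries) carried the lentivirus alone. All 6 libraries came from cells grown for 2 days in serum-containing RPMI 1640 medium, with no other treatment named. Total RNA was sequenced. The series calls the 3 libraries of a group biological replicates, and the sources used here do not say whether these were separate transductions, so p-values measure the spread between these libraries. Levels within a gene are given as CPM, the count relative to a library total scaled with TMM, the trimmed mean of log ratios between libraries. Log2 fold changes are PRL over control, each with its standard error (SE). Levels are compared between genes in the authors' TPM, which is per transcript length. Exceptions are shares and sums of counts or CPM, which also depend on length, and KRT8, ranked in CPM. In bulk RNA, fewer cells that express a gene and less of its RNA per cell cannot be told apart.

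The respiratory chain passes electrons from NADH and succinate to oxygen across the inner mitochondrial membrane. Complex II oxidises succinate and feeds electrons into ubiquinone without pumping protons. Complex III hands them to cytochrome c, complex IV reduces oxygen, and both pump protons that drive ATP synthase, complex V. Complex II is encoded wholly in the nucleus. Complexes III, IV and V also hold subunits encoded in mitochondrial DNA, and those genes were not analysed here.

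Libraries held 16211146 to 17402348 estimated counts, and 3 counts stood for 0.165 to 0.203 CPM. PRL had 8277, 8097 and 7789 counts in the PRL libraries and 3, 3 and 1 in the control libraries, in the direction of the labels. All 13 luminal breast markers were tested, with a list median of 0.20. Of these, 6 rose, among them CDH1, PGR, FOXA1 and XBP1, and 5 fell, among them KRT8. KRT8 was the most abundant (6513 ± 126 CPM in the PRL group and 9840.0 ± 1595 CPM in the control group, n = 3 each). The 13 markers summed to 18020 to 18500 CPM in the PRL libraries and 22190 to 28050 CPM in the control libraries. Across all 14076 tested genes 32.4% rose and 30.5% fell at an adjusted p under 0.05 by edgeR. Markers of other cells were low but moved with the groups. Of 6 tested immune markers 3 rose and 1 fell, and 8 markers summed to 22.9 to 25.2 CPM in the PRL libraries and 9.80 to 13.01 CPM in the control libraries. CD68, a macrophage gene, averaged 15.1 CPM in the PRL group and 3.54 CPM in the control group, while the leukocyte gene PTPRC had at most 20 counts in a PRL library and 16 in a control library. Of 2 tested stromal and endothelial markers COL1A1 rose, and the 9 markers summed to 72.5 to 73.0 CPM in the PRL libraries and 43.5 to 60.7 CPM in the control libraries, with DCN at no more than 1 count in a PRL library and 2 in a control library. Of 5 tested basal markers OXTR, TP63 and KRT17 rose and ACTA2 fell, and the 7 markers summed to 16.9 to 17.4 CPM in the PRL libraries and 18.3 to 21.6 CPM in the control libraries, with KRT5 and KRT14 at no more than 5 counts in any library. None of these genes was at 0 in all libraries. The part of these markers in the results was not tested. Control libraries differed more from each other than PRL libraries did: the median coefficient of variation over the tested genes of these complexes was 3.5% in the PRL group and 16% in the control group. Control replicate 1 lay farthest from the PRL mean for 36 of the 46 genes.

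The comparison asked how transcripts of these complexes differed in cells that overexpress prolactin. Of 46 tested genes 36 (78.3%) fell and 2 (4.35%) rose at an adjusted p under 0.05 in edgeR's quasi-likelihood test, and 8 did not pass. Across all 14076 tested genes 62.9% passed, 30.5% lower and 32.4% higher. Higher genes made up 51.4% of these calls, 72.9% with library totals as the scaling, 69.9% on FPKM and 83.8% on TPM. The median log2 fold change was -0.71 over these 46 genes and 0.01 over all tested genes. All PRL libraries lay below all control libraries for 37 of the 46 genes, against 33.5% of all tested genes, and above them for 2, against 35.9%. The falls lay in complexes III, IV and V and in CYCS, with 7 of 9, 11 of 13, 17 of 19 and 1 of 1 tested genes, and none lay in complex II. Their levels were summed per length as well: they held 21329 ± 274 TPM in the PRL group and 25894 ± 537 TPM in the control group (SD, n = 3 each), which is a description with no test. On TPM the median of all tested genes itself moved to 0.39, that of these genes to -0.26, and 26 fell and 8 rose.

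**Figure D1:**
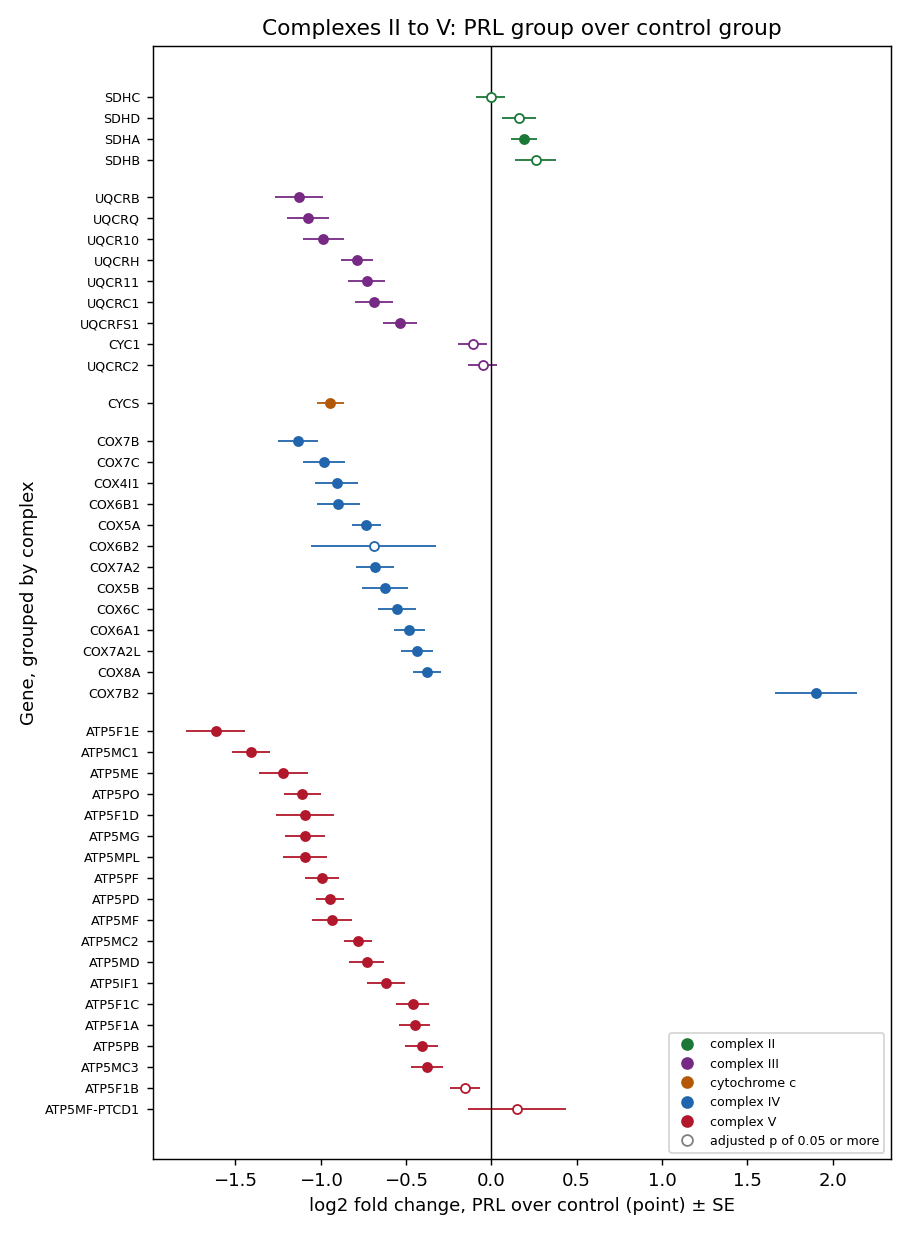
Log2 fold change of each of the 46 tested genes, PRL over control, on the horizontal axis, with the genes grouped by complex down the page. Points are estimates from 3 libraries a group, bars are 1 SE, and open points did not pass an adjusted p of 0.05. On this scale complex II lies at or right of 0, most of complexes III, IV and V lie left of it, and COX7B2 stands at 1.90.

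Promoter sequence was looked at because genes of complexes III, IV and V moved together. RefSeq windows (GRCh38.p14, 250 bases before to 50 after the start) were matched by NCBI gene ID for 39 of the 51 genes. Those without an entry were ATP5F1B, ATP5F1D, ATP5MC3, ATP5MF, ATP5MF-PTCD1, ATP5MGL, COX4I2, COX6C, CYC1, SDHC, UQCRB and UQCRHL. Motifs of factors known to act on respiratory genes were searched on both strands. The nuclear respiratory factor NRF1 motif, written GCGC, any base, then TGCGC, was in 11 of 39 windows (28.2%), against 9.4% of windows of all genes in the table and 6.3% of all RefSeq windows. The ETS motif CCGGAAG, which GABP binds, was in 15 (38.5%, against 15.6% and 10.7%). The YY1 motif AANATGGCG was in 6 (15.4%, against 5.3% and 3.4%), and TATAAA in 4 (10.3%, against 7.9% and 12%). No match to a motif overlapped a match to a different motif in these windows. A match is a stretch of letters, not a measured site.

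The 100 bases before the RefSeq start are shown for the 8 genes with the smallest adjusted p that hold an NRF1, ETS or YY1 match within them, written in the direction of the gene with matches in capitals. They lie at chr21:33915805-33915904 (ATP5PO), chr21:25735055-25735154 (ATP5PF), chr14:103921530-103921629 (ATP5MPL, named ATP5MJ by RefSeq) and chr3:48609647-48609746 (UQCRC1), all on the minus strand with chr19:1605463-1605562 (UQCR11), and at chr5:132866542-132866641 (UQCRQ), chr1:46303598-46303697 (UQCRH) and chr19:35648223-35648322 (COX6B1) on the plus strand.
ATP5PO: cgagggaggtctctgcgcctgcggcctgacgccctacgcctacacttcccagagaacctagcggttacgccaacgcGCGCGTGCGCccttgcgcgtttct
ATP5PF: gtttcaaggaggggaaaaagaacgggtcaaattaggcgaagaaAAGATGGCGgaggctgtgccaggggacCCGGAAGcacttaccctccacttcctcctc
ATP5MPL: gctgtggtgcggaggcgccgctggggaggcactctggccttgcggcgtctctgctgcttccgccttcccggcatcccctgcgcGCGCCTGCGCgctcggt
UQCRQ: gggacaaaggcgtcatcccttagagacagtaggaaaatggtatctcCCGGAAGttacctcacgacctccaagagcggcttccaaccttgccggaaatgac
UQCRH: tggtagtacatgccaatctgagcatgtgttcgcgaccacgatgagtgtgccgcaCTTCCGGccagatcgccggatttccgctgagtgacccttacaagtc
COX6B1: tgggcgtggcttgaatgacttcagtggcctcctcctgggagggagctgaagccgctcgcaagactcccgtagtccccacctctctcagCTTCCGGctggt
UQCR11: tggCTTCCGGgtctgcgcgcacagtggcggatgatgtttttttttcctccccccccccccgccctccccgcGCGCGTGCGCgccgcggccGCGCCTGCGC
UQCRC1: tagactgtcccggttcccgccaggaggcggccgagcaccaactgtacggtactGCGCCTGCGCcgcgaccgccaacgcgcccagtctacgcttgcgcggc
NRF1 matches stand in ATP5PO, ATP5MPL, UQCR11 (at both capital runs nearest its start) and UQCRC1. ETS matches stand in ATP5PF, UQCRQ, UQCRH, COX6B1 and, at its far end, UQCR11. The YY1 match of ATP5PF lies upstream of its ETS match. SDHA, which rose, has 4 NRF1 matches in its window, SDHB an ETS and a YY1 match, and SDHD an NRF1 and an ETS match. Of 22 tested genes with a match to any of these 3 motifs in the whole window, 19 fell, with a median log2 fold change of -0.76. Of 15 tested genes with a window and no such match, 12 fell, with a median of -0.69.

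Complex II was the complex without a fall. SDHA, the flavoprotein that binds succinate, had 305, 302 and 304 CPM in the PRL libraries, against 249.3, 266 and 283 CPM in the control libraries, and rose by a small amount (edgeR log2 fold change 0.19 ± 0.08 SE with adjusted p = 0.0494). All its PRL libraries lay above all its control libraries, while the groups overlapped for the other 3. SDHB, the iron-sulfur subunit, had 83.95, 81.2 and 85.9 CPM in the PRL libraries, against 68.9, 57.02 and 83.6 CPM in the control libraries (edgeR log2 fold change 0.26 ± 0.12 SE with adjusted p = 0.0784). The membrane anchors that bind heme and ubiquinone showed no call either. SDHC had 203, 203 and 212 CPM in the PRL libraries, against 208, 185 and 224 CPM in the control libraries (edgeR log2 fold change -0.0015 ± 0.08 SE with adjusted p = 0.989), and SDHD had 144, 149.8 and 149 CPM in the PRL libraries, against 126, 116 and 153 CPM in the control libraries (edgeR log2 fold change 0.16 ± 0.10 SE with adjusted p = 0.174). In SDHB, SDHC and SDHD control replicate 3 was the highest control library and lay above at least 1 PRL library. Without it SDHB (log2 fold change 0.43, adjusted p = 0.000896 by edgeR) and SDHD (0.31, 0.00144) rose. SDHA lies on chromosome 5 (GRCh38, 218241 to 256700, plus strand), and the annotation names 3 pseudogenes of it, so part of its reads may be assigned with error. The call of SDHA ended under 9 of 21 alternatives (adjusted p up to 0.155), with its sign kept in all of them. On TPM all 4 genes rose, with log2 fold changes of 0.65 for SDHA, 0.73 for SDHB, 0.52 for SDHC and 0.54 for SDHD, where the median of all tested genes was 0.39. With each library's trend on gene length removed, SDHB (log2 fold change 0.69, adjusted p = 0.00195 by edgeR) and SDHD (0.47, 0.00567) rose as well as SDHA (0.18, 0.0288). Summed per length, the complex held 789 ± 9.91 TPM in the PRL group and 527 ± 96.8 TPM in the control group.

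Complex III fell in its small subunits and less evenly in its core. All 5 small subunits without redox centres fell, with a median log2 fold change of -0.98. UQCRQ had 141, 145 and 154 CPM in the PRL libraries, against 380.2, 269 and 277 CPM in the control libraries (edgeR log2 fold change -1.07 ± 0.13 SE with adjusted p = 4.4e-05). UQCR10 had 90.2, 91.3 and 99.3 CPM in the PRL libraries, against 224, 168 and 164 CPM in the control libraries (edgeR log2 fold change -0.98 ± 0.12 SE with adjusted p = 5.2e-05). Neither gene's groups overlapped, and control replicate 1 was the highest library for both. UQCRH, the acidic hinge protein near the cytochrome c binding site, had 148, 153 and 152 CPM in the PRL libraries, against 299.9, 241 and 241 CPM in the control libraries (edgeR log2 fold change -0.79 ± 0.10 SE with adjusted p = 5.6e-05). UQCRB had 215, 227 and 232 CPM in the PRL libraries, against 622, 431 and 415 CPM in the control libraries (edgeR log2 fold change -1.12 ± 0.14 SE with adjusted p = 6.9e-05). UQCR11 fell by 0.73 on the log2 scale, and the PRL libraries lay below every control library for each of the 5.

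Subunits at the centre of complex III did not move alike. UQCRC1, a core protein of the matrix side, fell (edgeR log2 fold change -0.69 ± 0.11 SE with adjusted p = 3.4e-04), and UQCRFS1, the Rieske iron-sulfur protein that takes electrons from ubiquinol, fell (edgeR log2 fold change -0.53 ± 0.10 SE with adjusted p = 8.8e-04). CYC1, the heme-bearing cytochrome c1 that passes them on to cytochrome c, had 239, 253 and 251 CPM in the PRL libraries, against 275, 239 and 286 CPM in the control libraries (edgeR log2 fold change -0.11 ± 0.09 SE with adjusted p = 0.291). UQCRC2, the other core protein, did not pass (edgeR log2 fold change -0.05 ± 0.08 SE with adjusted p = 0.618). The groups overlapped for CYC1 and UQCRC2, and on TPM both rose, by 0.35 and 0.41 on the log2 scale, near the 0.39 of all tested genes. UQCRFS1 did not pass on TPM (log2 fold change -0.07). UQCRHL, an intronless copy of UQCRH, had 0, 2 and 0 counts in the PRL libraries, against 8, 5 and 5 in the control libraries, and reads of it and of UQCRH cannot be told apart with certainty.

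Cytochrome c, the soluble carrier between complexes III and IV that also takes part in apoptosis, fell to nearly the same value in every PRL library. CYCS, on chromosome 7 (GRCh38, 25120091 to 25125361, minus strand), had 208, 206 and 208 CPM in the PRL libraries, against 434, 379 and 385 CPM in the control libraries (edgeR log2 fold change -0.94 ± 0.08 SE with adjusted p = 5.7e-06). The annotation used here names 40 CYCS pseudogenes, so the division of its reads is uncertain. Its level per length was 69.7 ± 1.67 TPM in the PRL group and 97.7 ± 3.94 TPM in the control group (SD, n = 3 each).

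In complex IV the 10 widely expressed subunits all fell, with a median log2 fold change of -0.71. COX7B had 83.7, 93.9 and 88.8 CPM in the PRL libraries, against 232, 167 and 184 CPM in the control libraries (edgeR log2 fold change -1.13 ± 0.12 SE with adjusted p = 2.0e-05). COX7C, a small subunit in the membrane part, had 245, 259 and 252 CPM in the PRL libraries, against 603, 453 and 433 CPM in the control libraries (edgeR log2 fold change -0.98 ± 0.12 SE with adjusted p = 6.2e-05). The groups stood apart in both, and each gene's highest PRL library lay far below its lowest control library. COX5A, a matrix-side subunit that binds thyroid hormone metabolites, had 97.5, 109 and 105 CPM in the PRL libraries, against 189, 165 and 164 CPM in the control libraries (edgeR log2 fold change -0.73 ± 0.08 SE with adjusted p = 4.1e-05). COX4I1, the regulatory subunit at which ATP slows the enzyme, had 483, 502 and 542 CPM in the PRL libraries, against 1140.0, 909 and 812 CPM in the control libraries (edgeR log2 fold change -0.91 ± 0.12 SE with adjusted p = 1.2e-04). COX6B1, which joins the monomers of the dimer, had 242, 266 and 288 CPM in the PRL libraries, against 594, 466 and 424 CPM in the control libraries (edgeR log2 fold change -0.90 ± 0.13 SE with adjusted p = 1.4e-04). No PRL library reached a control library for these 3 genes. COX5B, COX6A1, COX6C, COX7A2 and COX8A also fell, with log2 fold changes from -0.68 for COX7A2 to -0.38 for COX8A. On TPM 6 of 13 tested complex IV genes fell, namely COX4I1, COX5A, COX6B1, COX7A2, COX7B and COX7C, and COX8A lay above 0 at 0.08.

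COX6A1 and COX8A were the most abundant complex IV genes per length in the PRL group, and fell the least of the widely expressed ones. COX6A1 had 519.5, 550.2 and 582 CPM in the PRL libraries, against 829, 719 and 753 CPM in the control libraries (edgeR log2 fold change -0.48 ± 0.09 SE with adjusted p = 9.8e-04), and its level per length was 2036 ± 68.6 TPM in the PRL group and 2072 ± 108 TPM in the control group. COX8A had 329, 341 and 352 CPM in the PRL libraries, against 477, 420.1 and 429.7 CPM in the control libraries (edgeR log2 fold change -0.38 ± 0.08 SE with adjusted p = 0.00231), with 1382 ± 14.01 TPM in the PRL group and 1310.0 ± 62.1 TPM in the control group. COX7A2 had 163, 176 and 171 CPM in the PRL libraries, against 325, 251 and 241 CPM in the control libraries (edgeR log2 fold change -0.68 ± 0.11 SE with adjusted p = 3.7e-04). Its paralog COX7A2L, which helps join complexes III and IV into supercomplexes, had 74.3, 71.9 and 73.9 CPM in the PRL libraries, against 101, 85.7 and 111 CPM in the control libraries (edgeR log2 fold change -0.44 ± 0.09 SE with adjusted p = 0.00233). The PRL libraries lay below the control libraries for all 4 genes on CPM. With the gene length trend removed COX6A1 (0.00) and COX8A (0.08) lay at or above 0 and COX7A2L at -0.06, and none of these 3 passed. COX5B (-0.09) and COX6C (-0.02) did not pass in that setting either, so 6 of the 10 widely expressed subunits still fell.

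A tissue isoform went the other way. COX7B2, a paralog of COX7B known from testis, lies on chromosome 4 (GRCh38, 46734827 to 46909235, minus strand). It had 51, 58 and 61 counts in the PRL libraries, against 15, 12 and 12 in the control libraries, and rose (edgeR log2 fold change 1.90 ± 0.24 SE with adjusted p = 7.0e-05) with this call kept in all 21 alternatives. Even the lowest PRL library held more counts of it than all control libraries together. Its level per length remained below that of COX7B: COX7B2 was 11.2 ± 0.965 TPM in the PRL group and 1.99 ± 0.173 TPM in the control group, and COX7B was 66.9 ± 3.19 TPM in the PRL group and 106 ± 8.08 TPM in the control group. COX7B2 made up 14.3% ± 1.13 of the summed TPM of these 2 genes in the PRL group and 1.84% ± 0.0713 in the control group (SD, n = 3 each). These shares rest on the lengths implied by the deposited values, 527 bases for COX7B2 and 2395 bases for COX7B. In counts the share of COX7B2 was smaller: COX7B had 1511, 1705 and 1556 counts in the PRL libraries, against 3430, 2615 and 2952 in the control libraries. COX6B2, another testis paralog, had 20, 23 and 21 counts in the PRL libraries, against 36, 39 and 14 in the control libraries, and did not pass (edgeR log2 fold change -0.69 ± 0.37 SE with adjusted p = 0.123). Control replicate 3 lay apart from the other control libraries for COX6B2, and without it the gene fell (log2 fold change -1.03, edgeR adjusted p = 0.00301). The lung isoform COX4I2, the muscle isoform COX6A2 and COX8C had at most 1 count in any library. The limit that a count of 0 allows is 3 counts, and these genes did not exceed it in any library.

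**Figure D2:**
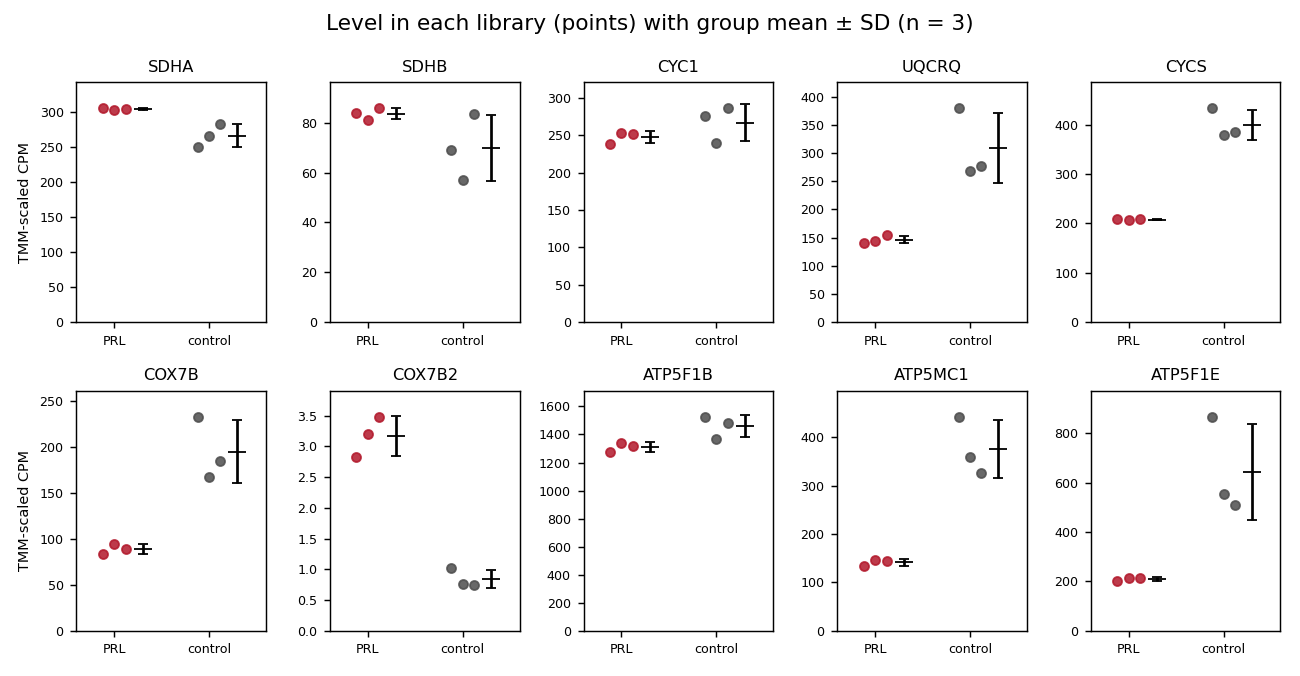
TMM-scaled CPM of 10 genes in each library, PRL left of control, with points for libraries and bars for the group mean ± SD (n = 3), each axis starting at 0. PRL points cluster tightly. They lie below the control points for UQCRQ, CYCS, COX7B, ATP5F1B, ATP5MC1 and ATP5F1E and above them for SDHA and COX7B2. The groups overlap for SDHB, with 2 of 3 PRL points above every control point, and for CYC1; on TPM ATP5F1B and CYC1 were higher in the PRL group.

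ATP synthase held the 3 largest falls, those of ATP5F1E, ATP5MC1 and ATP5ME. Its catalytic head and central stalk, called F1, are made of 5 kinds of subunit. Values per library of ATP5F1B, ATP5F1D and ATP5F1E were chosen for printing after they were seen. ATP5F1B, the beta subunit that makes ATP, had 1275, 1341 and 1317 CPM in the PRL libraries, against 1526, 1370.0 and 1479 CPM in the control libraries (edgeR log2 fold change -0.15 ± 0.09 SE with adjusted p = 0.155), so its PRL libraries lay lowest but it did not pass, and on TPM it rose (log2 fold change 0.30). ATP5F1A and ATP5F1C, the alpha and gamma subunits, fell by 0.45 and 0.46 on the log2 scale (adjusted p = 0.00161 and 0.00209 by edgeR), calls that ended on TPM, where ATP5F1A stood at 0.02 and ATP5F1C at 0.00. With the gene length trend removed ATP5F1C did not pass (-0.06), while ATP5F1A did (-0.34, adjusted p = 0.00222 by edgeR). The small subunits of the stalk's foot fell by more. ATP5F1D, the delta subunit, had 173, 181 and 194 CPM in the PRL libraries, against 502, 386 and 281 CPM in the control libraries (edgeR log2 fold change -1.09 ± 0.17 SE with adjusted p = 2.7e-04). ATP5F1E, the epsilon subunit, had 202, 215 and 214 CPM in the PRL libraries, against 866, 553 and 511 CPM in the control libraries (edgeR log2 fold change -1.61 ± 0.17 SE with adjusted p = 2.4e-05). Its control libraries were spread, with replicate 1 far above the others, and TUBB1 on the opposite strand covers 23.2% of its exon bases. Over all alternatives its log2 fold change ran from -1.75 to -1.11 and stayed past the threshold.

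The peripheral stalk, which holds the head still, fell in all 4 genes. ATP5PD had 187, 190.0 and 185 CPM in the PRL libraries, against 396, 338 and 346 CPM in the control libraries (edgeR log2 fold change -0.94 ± 0.08 SE with adjusted p = 7.0e-06). ATP5PO, the oligomycin sensitivity protein at the top of the stalk, had 186, 187 and 186 CPM in the PRL libraries, against 476, 367 and 361 CPM in the control libraries (edgeR log2 fold change -1.11 ± 0.11 SE with adjusted p = 1.4e-05). ATP5PF had 173, 184 and 193 CPM in the PRL libraries, against 411, 363 and 319 CPM in the control libraries (edgeR log2 fold change -0.99 ± 0.10 SE with adjusted p = 1.7e-05). PRL libraries lay within a narrow band for ATP5PO and below every control library for all 3. ATP5PB, the stalk's long membrane-anchored subunit, fell by less (edgeR log2 fold change -0.41 ± 0.10 SE with adjusted p = 0.00383), and on TPM it stood at 0.05 and did not pass. ATP5PF shares exon bases with GABPA and JAM2 on the opposite strand (23.1% of its exon bases).

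ATP5MC1, ATP5MC2 and ATP5MC3 each encode a precursor that is processed to the same mature c subunit, the protein of the rotating membrane ring. They lie apart in the genome, ATP5MC1 on chromosome 17 (GRCh38, 48892765 to 48895871, plus strand). The annotation names 7 pseudogenes of ATP5MC1 and 3 of ATP5MC2, so part of their reads may be assigned with error. The 3 genes fell by unequal amounts. ATP5MC1 had 133, 146 and 145 CPM in the PRL libraries, against 442, 358 and 326 CPM in the control libraries (edgeR log2 fold change -1.41 ± 0.11 SE with adjusted p = 3.5e-06), the smallest adjusted p among the 46 genes. ATP5MC2 had 349, 367 and 359 CPM in the PRL libraries, against 660.1, 595 and 589 CPM in the control libraries (edgeR log2 fold change -0.78 ± 0.08 SE with adjusted p = 2.3e-05). ATP5MC3 had 133, 144 and 140.1 CPM in the PRL libraries, against 189.5, 158 and 194 CPM in the control libraries (edgeR log2 fold change -0.38 ± 0.09 SE with adjusted p = 0.00445), and on TPM its log2 fold change was 0.09 and did not pass. No PRL library reached a control library in any of the 3. ATP5MC1 took 21.6%, 22.2% and 22.6% of the counts of these genes in the PRL libraries, against 34.2%, 32.3% and 29.4% in the control libraries. The means were 22.1% ± 0.462 in the PRL group and 32.0% ± 2.43 in the control group, a difference of -9.84 percentage points (exact two-sided permutation test over libraries, p = 0.1, the smallest that 3 against 3 allows). Per length ATP5MC2 led in every library, with 65.5% ± 0.673 of the summed TPM in the PRL group and 57.5% ± 1.98 in the control group. ATP5MC1 followed with 28.7% ± 0.642 in the PRL group and 38.7% ± 2.34 in the control group, and ATP5MC3 with 5.75% ± 0.0468 in the PRL group and 3.80% ± 0.505 in the control group.

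**Figure D3:**
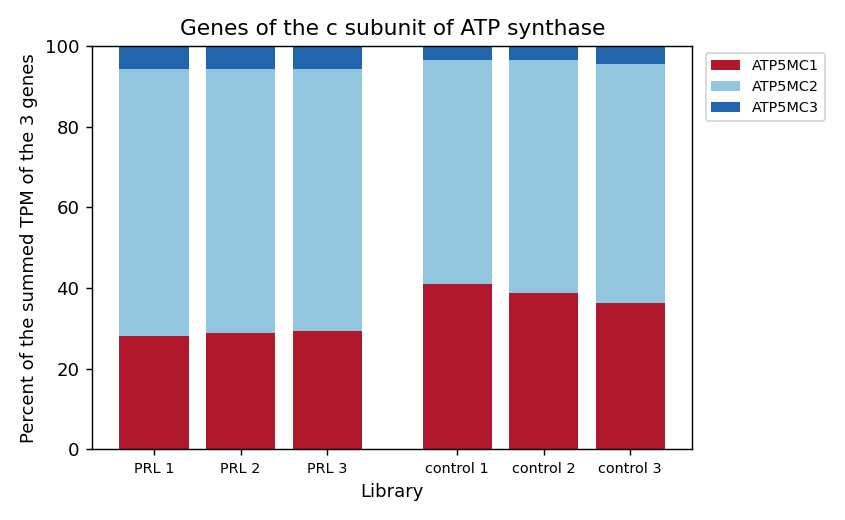
Share of each of the 3 c subunit genes in their summed TPM (vertical axis, percent), with 1 bar for each library and the PRL libraries left of the control libraries. ATP5MC1 holds 28.0% to 29.3% in the PRL libraries and 36.4% to 41.1% in the control libraries, while ATP5MC2 and ATP5MC3 hold larger shares in the PRL libraries.

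The other membrane subunits, which bend the membrane and join ATP synthase into dimers, fell in all 5 genes with a median log2 fold change of -1.09. ATP5ME fell the most of them (log2 fold change -1.22 ± 0.14 SE), followed by ATP5MG (-1.09), ATP5MPL (-1.09), ATP5MF (-0.93) and ATP5MD (-0.73), which RefSeq names ATP5MK. Their edgeR adjusted p ranged from 2.3e-05 for ATP5MG to 1.3e-04 for ATP5MD. MYL5 on the opposite strand overlaps 61.6% of the exon bases of ATP5ME. ATP5IF1, the inhibitor that stops the enzyme from running backwards, had 229.6, 229 and 238 CPM in the PRL libraries, against 415, 352 and 301 CPM in the control libraries (edgeR log2 fold change -0.62 ± 0.11 SE with adjusted p = 6.6e-04). Its groups did not overlap, and it no longer passed with the gene length trend removed (log2 fold change -0.11). ATP5MF-PTCD1, a readthrough gene that shares 88.3% of its exon bases with ATP5MF and PTCD1, had 11.1, 15.7 and 18.3 CPM in the PRL libraries, against 7.46, 19.1 and 13.9 CPM in the control libraries and did not pass (edgeR log2 fold change 0.15 ± 0.29 SE with adjusted p = 0.662). ATP5MGL, an intronless relative of ATP5MG, had 0, 6 and 5 counts in the PRL libraries, against 3, 10 and 3 in the control libraries.

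Genes of these complexes have short transcripts, and length moved with the fold change across the table. The length implied by the deposited counts and FPKM had a median of 1009 bases over the 46 genes and 2898 bases over 13303 tested genes with a value. Below 1000 bases 609 of 938 tested genes (64.9%) fell with a median log2 fold change of -0.58, and at 1000 bases or more 3614 of 12365 (29.2%) fell with a median of 0.04. Among the genes of these complexes 21 of 23 (91.3%) fell below 1000 bases, with a median of -0.90, and 15 of 23 (65.2%) at 1000 bases or more, with a median of -0.46. The largest falls on the longer side were those of ATP5F1E (3561 bases, log2 fold change -1.61), COX7B (2395, -1.13) and UQCRB (8419, -1.12). The same side holds ATP5F1B (1710, -0.15), CYC1 (1155, -0.11), UQCRC2 (1865, -0.05), SDHC (1665, -0.0015), SDHD (1249, 0.16) and SDHA (2768, 0.19). Implied lengths follow the authors' annotation and were not checked against the RNA expressed, so the side of a gene and its length-corrected value are uncertain. As a description across genes that share their libraries, Spearman's rho between length and log2 fold change was 0.196 over these 46 genes and 0.231 over all genes with a length. With each library's trend on length removed, 29 of the 46 fell and 5 rose, and their median was -0.37, against 0.07 over all tested genes. Higher genes made up 56.3% of the calls over the whole table in that setting. The share of counts on cytoplasmic ribosomal protein genes moved too, at 10.1% to 10.6% in the PRL libraries and 15.6% to 18.7% in the control libraries. All 79 tested ribosomal protein genes fell, with a median log2 fold change of -0.95. With the ribosomal protein genes left out before scaling the same 36 genes of these complexes fell. The part of the ribosomal protein shift in these falls was not tested.

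**Figure D4:**
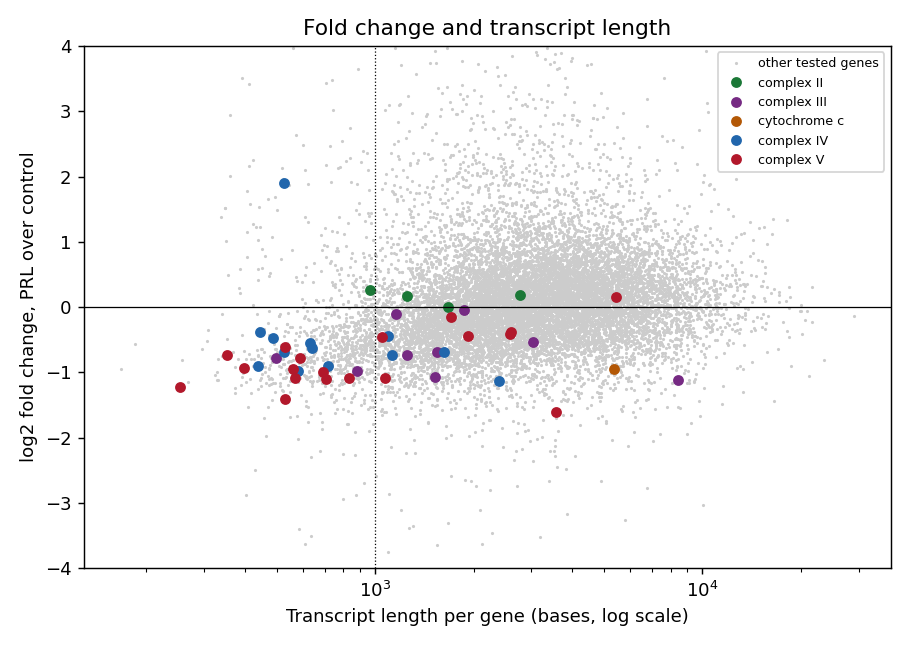
Log2 fold change, PRL over control (vertical axis), against transcript length per gene in bases (horizontal log axis), with coloured points for the 46 genes and grey points for other tested genes. The vertical axis stops at 4 in either direction and leaves out 96 genes, and the dotted line marks 1000 bases. Coloured points left of the line lie between -1.41 and -0.38 apart from SDHB and COX7B2, and those right of it run from -1.61 to 0.19. Signs of genes near 0, and of some genes called lower, depend on the processing.

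Other genes of the same pathways were counted from lists that included the assembly factors. Over all tested genes 30.5% fell and 32.4% rose. On TPM the median of all tested genes was 0.39, and higher genes made up 83.8% of the calls. Complex I, which takes electrons from NADH, had 37 of 38 tested subunits lower and none higher, with a median log2 fold change of -0.79, and 27 fell and 4 rose on TPM. NDUFS6 had 100.5 ± 5.78 CPM in the PRL group and 289.8 ± 61.8 CPM in the control group (log2 fold change -1.53, adjusted p = 7.2e-06 by edgeR), and NDUFB9 had 189 ± 8.89 CPM in the PRL group and 437 ± 72.6 CPM in the control group (log2 fold change -1.21, adjusted p = 1.1e-05 by edgeR). Of 28 complex IV assembly factors 24 fell and 1 rose (median -0.50), while on TPM 8 fell and 5 rose (median -0.04). COX17, the copper chaperone that feeds the enzyme, had 42.6 ± 2.31 CPM in the PRL group and 101 ± 13.9 CPM in the control group (log2 fold change -1.24, adjusted p = 4.8e-06 by edgeR), and COA3, which acts in the making of COX1, fell by 1.19 on the log2 scale (adjusted p = 1.7e-05 by edgeR). Of 9 complex III assembly factors 5 fell and 1 rose (median -0.37, or 0.07 on TPM), with UQCC3 (log2 fold change -1.54, adjusted p = 2.1e-05 by edgeR) and SMIM4, also known as UQCC5, (-1.07, 4.7e-05) the clearest. Of 5 complex V factors 3 fell, among them ATPAF1 (-0.36, adjusted p = 0.00397 by edgeR) and TMEM242 (-0.37, 0.00724), and none fell on TPM. SDHAF2, which helps load flavin onto SDHA, fell (-0.64, adjusted p = 0.00114 by edgeR), while SDHAF1, for the iron-sulfur subunit, did not pass (-0.25, 0.0812). On TPM none of the 3 tested complex II factors fell and 1 rose.

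All 4 tested carriers that exchange ATP, ADP and phosphate with the matrix fell, with a median log2 fold change of -0.68, and on TPM 2 of the 4 fell (median -0.25). SLC25A6, an ADP/ATP carrier, had 426 ± 13.2 CPM in the PRL group and 754 ± 63.7 CPM in the control group (log2 fold change -0.82, adjusted p = 2.7e-05 by edgeR), and SLC25A3, the phosphate carrier, fell by 0.72 on the log2 scale (adjusted p = 5.6e-05 by edgeR). Citrate cycle and pyruvate dehydrogenase genes went both ways, with 9 of 17 lower and 3 higher (median -0.29). With library totals as the scaling 7 were lower and 6 higher, and on TPM 2 were lower and 7 higher (median 0.14). Over all tested genes these settings gave medians of 0.26 and 0.39, with 72.9% and 83.8% of the calls higher. SUCLG1 (-0.66, adjusted p = 6.8e-05 by edgeR) and IDH3A (-0.63, 9.6e-05) had the smallest adjusted p, and both fell, while SUCLG2 rose (0.69, adjusted p = 7.3e-04 by edgeR), named after its value was seen. Transcription factors and coactivators of respiratory genes were counted too: 4 of 13 rose, 4 fell and 5 did not pass, which is near the 32.4% higher and 30.5% lower of all tested genes. PPRC1, a coactivator related to PGC-1, fell (-0.64, adjusted p = 7.5e-05 by edgeR), and so did NRF1, the factor whose motif was searched (12.6 ± 0.55 CPM in the PRL group and 17.7 ± 1.012 CPM in the control group, log2 fold change -0.50, adjusted p = 0.00118 by edgeR). GABPA, which binds the ETS motif (0.35, adjusted p = 0.00912 by edgeR) and YY1 (0.25, 0.0107) rose. GABPB1, the other GABP gene of the list, fell (-0.38, adjusted p = 0.00185 by edgeR), so the GABP genes went both ways. On TPM none of 11 such factors fell and 6 rose, and NRF1 stood at 6.54 ± 0.418 TPM in the PRL group and 6.86 ± 0.339 TPM in the control group (SD, n = 3 each). Genes that resemble mitochondrial ribosomal RNA (MTRNR2L) rose in 7 of 8 tested members and summed to 14310 to 14800 CPM in the PRL libraries and 8344 to 9068 CPM in the control libraries. Their part in the results above was not tested.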

How the data were processed

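RNA of 6 T47D libraries was sequenced. The submitters' processing notes name HISAT2 2.1.0, Bowtie2 2.3.4.3 and the build GRCh38.p13. No source used here states the counter, the annotation or strand, so a gene and its antisense neighbour may share reads. Pseudogenes and same-strand overlaps also occur where not mentioned above, as for COX6C (17 named pseudogenes) and COX8A (34.5% of exon bases overlapped). The authors deposited estimated counts (expected counts per gene) in 1 table, per the file headers, and 44.1% to 45.9% of them per library were not whole. FPKM and TPM columns stand beside them as deposited, made by the authors per length and depth. The estimated counts were rounded here. The authors' 6 columns of group means were not used.

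Samples were grouped by title. edgeR 4.0.16 (R 4.3.3) was run on all genes with its filter on low counts, TMM scaling, a robust quasi-likelihood fit with group as the only term, and Benjamini-Hochberg adjustment over 14076 genes at 0.05. The SE is the absolute log2 fold change over the root of F. DESeq2 1.42.0, limma 3.58.1 (log2 of FPKM or TPM plus 1, mean of at least 1) and mgcv 1.9.3 (trends) served the alternatives. The tests were checked on simulated counts. Length came from the ratio of counts to FPKM, for genes with FPKM of at least 0.5 and 3 counts. Positions and overlaps are from GENCODE 29 on GRCh38, promoters from RefSeq. No protein sequence was used. Floors cover counting error only.

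The genes and lists were chosen with earlier results of these data known. All 51 genes were named, with values per library for complex II, CYC1, CYCS, the 4 smallest adjusted p and any positive fold change of complexes III to V, c subunit genes, isoform pairs and ATP5IF1, and 2 genes of each pathway list.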

Additional observations from a re-analysis of the deposited data

How the results depend on the processing

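The count of 36 genes that fell stayed within 26 to 37 over all 21 alternatives, and 24 of the 36 fell in each of them. Without a filter and in the DESeq2 test the 37 include UQCRHL, which was tested there. The median of the 46 genes stayed below that of all tested genes throughout. It was -0.45 with library totals, -0.46 on FPKM (pseudocount 1 or 0.1), -0.26 on TPM, -0.37 with the length trend removed, -0.37 with the replicate block and the length trend removed, and -0.38 with length and GC trends removed, a setting added after seeing the data. The median of all tested genes in these settings was 0.26, 0.20 (pseudocount 1), 0.24 (pseudocount 0.1), 0.39, 0.067, 0.071 and 0.044, and it was 0.059 with upper-quartile scaling and 0.044 without a filter. The 2 rises became 1 with DESeq2 size factors, no filter, ribosomal protein genes left out or the DESeq2 test. They became 3 with upper-quartile scaling, 6 with library totals or FPKM, and 8 on TPM. There were 5 with the length trend removed (with or without the replicate block) and 4 with length and GC trends removed. The causes were not tested. Leaving out 1 library gave 1 to 4 rises (4 without control replicate 3), 36 to 37 falls, medians of -0.77 to -0.57, and -11.1 to -8.70 points for the share of ATP5MC1, which was -10.0 on TPM. Calls over the whole table ran from 7590 to 9952.

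Signs changed most often for SDHC, UQCRC2, CYC1 and ATP5F1B, none of which passed. They also changed for genes called lower, namely COX6A1, ATP5F1A, COX7A2L, ATP5PB, COX8A and ATP5MC3, with log2 fold changes from -0.48 to -0.38. SDHC lay at 0.25 with library totals, 0.049 with upper-quartile scaling, 0.015 with the stricter CPM filter, 0.0027 in limma-voom, 0.32 on FPKM (either pseudocount), 0.52 on TPM, 0.0025 with the replicate block, and 0.17 with the length trend removed, also with the block or GC. CYC1, UQCRC2 and ATP5F1B lay at 0.15, 0.21 and 0.10 with library totals, at 0.15, 0.21 and 0.10 on FPKM, at 0.35, 0.41 and 0.30 on TPM, at 0.24, 0.070 and 0.0037 with the length trend removed, at 0.25, 0.074 and 0.0048 with the block as well, and at 0.22, 0.059 and 0.0062 with GC. UQCRC2 lay at 7e-04 with upper-quartile scaling. On TPM COX7A2L (0.068), COX8A (0.078), ATP5F1A (0.022), ATP5MC3 (0.087) and ATP5PB (0.055) lay above 0. COX8A lay at 0.084 with the length trend removed, 0.089 with the block as well and 0.036 with GC, and COX6A1 at 6e-04 and 0.0061 in the first 2 of these. Leaving out 1 library gave -0.077 to 0.081 for SDHC, -0.12 to 0.024 for UQCRC2 and -0.13 to 0.48 for ATP5MF-PTCD1.

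Libraries with the same number did not deviate together (correlations -0.105, 0.043 and -0.057, and 2 of 6 libraries correlated best with their own number), so the numbers are not taken to pair them. With the replicate block 36 genes fell, 2 rose and 8531 genes passed over the table. SDHA no longer passed (adjusted p = 0.126 by edgeR) and SDHB passed (0.0281). Depth limits COX4I2, COX6A2, COX8C, UQCRHL and ATP5MGL, which hold few counts.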
